A study of Mus musculus with 18 samples.

Results

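Beta-defensins are small, cationic, secreted peptides held together by disulfide bonds between conserved cysteines. They were first known for killing microbes, and the epididymis expresses an unusually large number of them, many under androgen control, where they coat sperm as these pass along the duct. Spag11a and Spag11b are epididymal genes of the same locus whose products carry a beta-defensin-like domain. Loss of blocks of these genes in mice has been tied to poor sperm function.

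The genes described here are all entries of the count tables whose symbol is Defb followed by a number, with or without a letter, together with Spag11a and Spag11b. Of 53819 entries per library, 44 fit, and 32 of them had 10 or more counts in at least 3 of the 18 libraries. All 32 passed the filter on low counts and were tested. The other 12 had at most 111 counts summed over the 18 libraries, and 3 of them had none.

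RNA from the caput epididymis, the head of the duct in which sperm begin to mature, was sequenced in C57BL/6J mice, with 3 libraries in each of 6 groups. At 10 weeks there was a control group, a group given 6% ethanol (EtOH) and a group given 10% EtOH, and the same 3 treatments were sampled again after cessation. The sources used here do not give the route of the EtOH, the ages of the mice or any shared litter or day, so each p-value reflects only differences among these libraries. Library totals, the sums of the deposited gene counts, were 15.6M to 21.1M at 10 weeks and 10.7M to 17.2M after cessation. In the 6% EtOH cessation group, the title of replicate 1 and its table carry different sample numbers. In the 10% EtOH 10-week group, the title of replicate 3 has an identifier of another form than those of the other 10% EtOH libraries.

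Of 19 listed initial segment and proximal caput genes, 18 were in the tables, and their sum ran from 13131 to 48640 CPM (counts scaled to a common library size). None of the 18 was at 0 in any library, but the same held for the listed markers of basal cells, macrophages and ciliated cells, so this does not place the samples in the caput. Several libraries stand apart and touch what follows. The 6% EtOH 10-week replicates 2 and 3 and the 10% EtOH 10-week replicate 3 had low Rnase9, an epididymal secreted protein of the ribonuclease family, at 668, 420 and 115 CPM against 1124 or more in the other 15. Control cessation replicate 3 and 6% EtOH cessation replicate 1 had the highest summed markers of ciliated efferent duct cells, 217 and 495 CPM, against 56.5 to 197 in the others. They also had the lowest summed distal caput and corpus genes, 32249 and 32777 CPM against 54620 to 85673. The 10% EtOH cessation replicate 3 had 526 CPM of Spint4, a protease inhibitor gene, which was at most 3.46 CPM elsewhere. The part of these differences in the results below was not tested except where a value without those libraries is given.

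All 32 described genes had a coding sequence with the 6 cysteines of a beta-defensin in the usual spacing, ending in an adjacent pair. The stretch from the first to the last of these cysteines is shown for the 4 genes most abundant per length and for the 3 whose library values carry the comparisons below, as DNA from the GENCODE release 21 transcripts of the earlier GRCm38 build, with the cysteine codons in capitals.
Defb20: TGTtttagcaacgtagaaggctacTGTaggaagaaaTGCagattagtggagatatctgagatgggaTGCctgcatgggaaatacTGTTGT
Defb25: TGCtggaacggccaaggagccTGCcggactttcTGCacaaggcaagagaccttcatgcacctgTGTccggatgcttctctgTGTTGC
Defb48: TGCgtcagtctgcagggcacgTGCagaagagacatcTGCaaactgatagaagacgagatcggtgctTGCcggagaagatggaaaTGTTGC
Spag11b: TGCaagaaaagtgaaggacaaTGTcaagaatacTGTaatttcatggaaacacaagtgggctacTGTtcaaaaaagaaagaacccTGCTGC
Defb41: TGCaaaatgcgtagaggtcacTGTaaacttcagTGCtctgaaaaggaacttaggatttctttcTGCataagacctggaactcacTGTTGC
Defb30: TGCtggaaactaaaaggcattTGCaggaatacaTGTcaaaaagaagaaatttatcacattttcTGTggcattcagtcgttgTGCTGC
Defb1: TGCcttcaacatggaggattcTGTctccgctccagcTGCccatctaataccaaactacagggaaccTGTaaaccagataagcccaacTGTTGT
Of the 32 genes, 9 shared at least 1 run of 50 bases with another transcript. For 5 of these over 10% of such runs were shared, so their counts are uncertain: Spag11a with Gm45826, Defb15 with the opposite-strand Gm36879, and Defb2, Defb10 and Defb11 with each other and with Defb9.

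The promoters of 20 described genes, in 21 windows running from 250 bases before to 50 bases after a RefSeq start, were searched on both strands for 3 motifs. AGAACA, part of the sequence bound by the androgen and glucocorticoid receptors, was in 61.9% of the 21 windows and in 19% of the 32851 mouse windows searched. Those windows did not cover every chromosome. TATAAA was in 19% against 13.6%, and CCAAT in 42.9% against 37.4%. These are descriptions of letters in a window with no test, and say nothing of binding. The 250 bases before the start are shown for 3 genes whose library values differ in pattern, in RefSeq's GRCm38.p6, with AGAACA or its reverse complement in capitals. All 3 carry this motif, which only 13 of the 21 windows had.
Defb41, chr1:18265139-18265388, minus strand: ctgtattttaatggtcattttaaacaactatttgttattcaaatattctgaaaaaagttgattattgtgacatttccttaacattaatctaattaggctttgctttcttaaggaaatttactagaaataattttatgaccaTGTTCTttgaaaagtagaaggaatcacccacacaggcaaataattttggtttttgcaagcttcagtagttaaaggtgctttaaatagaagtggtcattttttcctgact
Defb48, chr14:62984511-62984760, minus strand: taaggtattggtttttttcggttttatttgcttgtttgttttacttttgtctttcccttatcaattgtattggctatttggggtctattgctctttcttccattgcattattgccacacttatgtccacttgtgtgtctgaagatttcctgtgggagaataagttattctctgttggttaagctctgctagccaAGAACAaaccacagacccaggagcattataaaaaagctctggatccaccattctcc
Defb30, chr14:63037847-63038096, minus strand: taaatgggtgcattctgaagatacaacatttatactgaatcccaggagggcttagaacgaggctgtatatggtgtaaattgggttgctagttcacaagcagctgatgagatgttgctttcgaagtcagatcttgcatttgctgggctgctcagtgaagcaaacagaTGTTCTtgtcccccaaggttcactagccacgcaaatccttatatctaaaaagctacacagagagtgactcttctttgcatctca

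The described genes took 1.15% to 2.94% of the counts of a library. Spag11b, Defb20, Defb48, Defb25 and Defb42 together made up 78% of their CPM, and 7 of the 32 were among the 100 most abundant genes of the tissue. Per kilobase of exon, mean levels over the 18 libraries were 7902 CPM for Defb20, 6172 for Defb25, 4944 for Defb48, 3477 for Spag11b, 2758 for Defb47, 1931 for Defb18 and 1864 for Defb41. Each gene's range over the libraries overlapped that of the next gene in all 31 adjacent pairs of this order. By CPM alone, 14 genes had a mean above 100, 15 lay between 1 and 100, and Defb14, Defb40 and Defb22 were below 1.

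**Figure D1:**
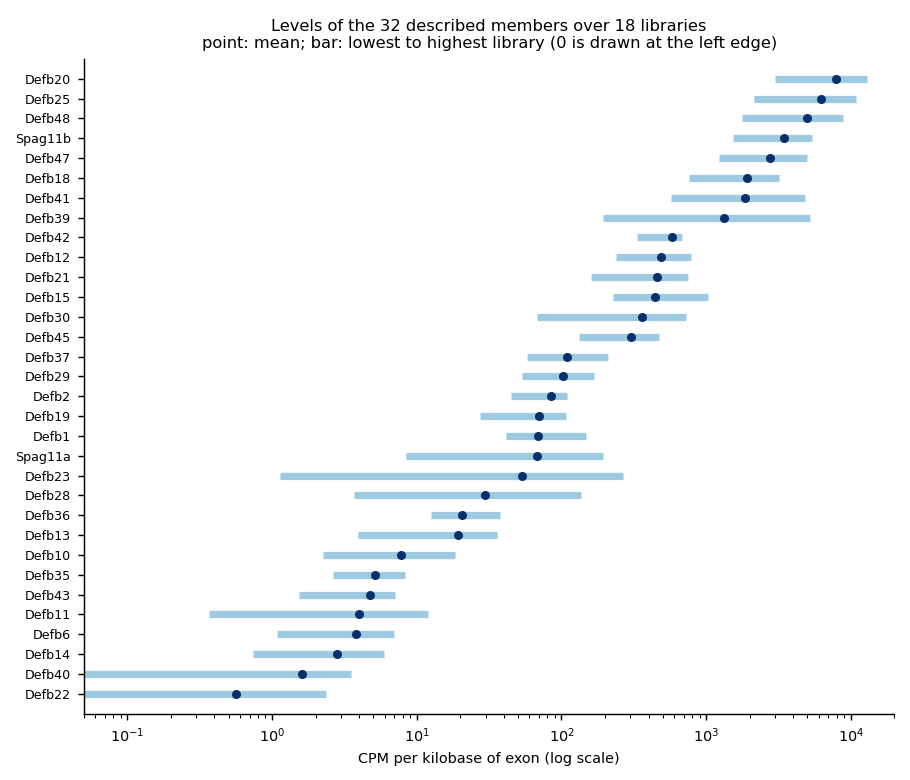
Mean level of the 32 described genes in CPM per kilobase of exon on a log axis (points) with the lowest to highest of 18 libraries (bars). Levels run from Defb20 at 7902 to Defb22 at 0.565, and the bars of neighbours overlap.

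Within a group the genes differed widely in how steady they were. Over the 29 with a mean of at least 1 CPM, the median coefficient of variation among 3 libraries was 16.7% in the 10-week controls, where it was 9.42% over all 15194 genes at that level. It was 33.9% and 34.2% in the 10-week 6% and 10% EtOH groups, against 10.7% and 15.1% over all genes. In the cessation groups it was 26.3% (control), 33.9% (6%) and 28.1% (10%), against 21.5%, 20.4% and 18.3% over all genes. Defb42 was the steadiest in each 10-week group, at 4.5%, 1.52% and 6.78%. In the 10-week 10% EtOH group, replicate 3 was the lowest of the 9 libraries of its time for 37.9% of these genes and for 28.9% of all genes. After cessation, 6% EtOH replicate 1 was the lowest for 58.6% of them and for 14.4% of all genes. The highest of the 9 libraries of 10 weeks was 6% EtOH replicate 1 for 41.4% of them, beside 7.42% of all genes. After cessation 10% EtOH replicates 1 and 3 were each the highest for 27.6%, beside 15.5% and 6.54% of all genes.

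**Figure D2:**
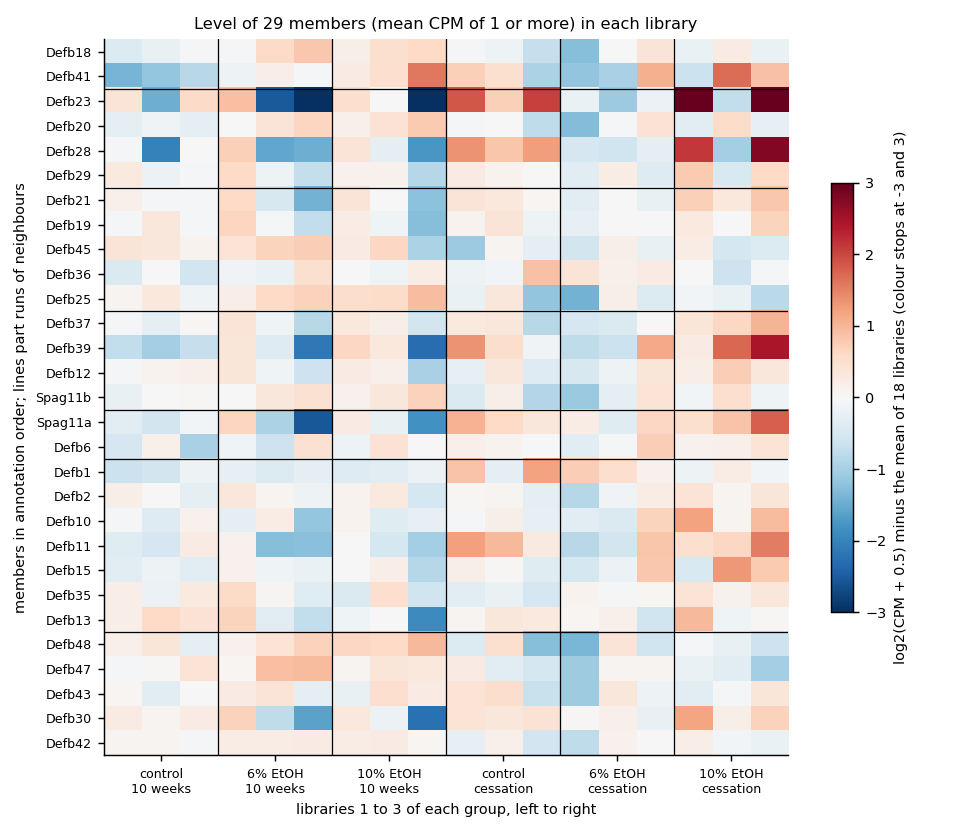
Log2(CPM + 0.5) of 29 genes in each library, minus the gene's mean over the 18 libraries, in annotation order with neighbouring runs parted by lines. Defb23, Defb28, Defb39, Spag11a and Defb30 are blue in 6% EtOH 10-week replicate 3 and 10% EtOH 10-week replicate 3, where Defb20, Defb25 and Defb48 are red.

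The first question was whether EtOH at 10 weeks changed these genes. No member passed an adjusted p of 0.05 with edgeR's quasi-likelihood test in either dose against control, and no gene did in the whole table of 18618 (percent called 0% for 6% and 0% for 10% EtOH). DESeq2 called no member and 81 genes for 10% EtOH (0.788% of 10276), and limma-voom called no gene in either comparison. At an unadjusted p under 0.05, 1 member was called for 6% EtOH against 2.36% of all genes, and 1 for 10% EtOH against 13.4%. Both dose groups share the control libraries. The median log2 fold change of the 32 was 0.142 for 6% and 0.116 for 10%, beside -0.00692 and -0.0113 over all genes, and 19 of 32 lay above 0 in each, beside 48.9% and 48.8% of all genes.

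Defb41, whose regulatory region is used to drive Cre recombinase in principal cells of the caput, had the smallest p for 10% EtOH. Its CPM was 351, 414 and 518 in the 10-week controls, 824, 1050.0 and 892 with 6% EtOH and 1096, 1296 and 2740.2 with 10% EtOH. The 3 groups did not overlap, and 10% EtOH replicate 3 stood far above its group. The log2 fold change of 10% EtOH was 2.0 ± 0.63 (SE), with an edgeR adjusted p of 0.299. That of 6% EtOH was 1.11 ± 0.62, with an adjusted p of 1. In a fit of the 9 libraries of 10 weeks alone, the 10% EtOH change of 2.02 ± 0.36 had an edgeR adjusted p of 0.0289, and Defb20 and Defb25 passed with it among 1059 genes (6.17% of 17154). In that fit without 10% EtOH replicate 3, Defb41 had 1.48 ± 0.17 and an edgeR adjusted p of 0.00657, beside 5.22% of genes called. In fits of both times, leaving out single libraries gave the 10% EtOH change of Defb41 an edgeR adjusted p of 0.274 to 0.831. With no filter on low counts the edgeR adjusted p was 1.53e-17, in a fit that called 736 genes (2.02% of 36360). Why that fit differs was not tested.

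The genes went different ways in the libraries low in Rnase9. Defb20, the most abundant per length, had 4279.6, 4734 and 4274 CPM in controls, 5101, 6739.9 and 8076 with 6% EtOH and 5768, 6998 and 8912 with 10% EtOH, with no overlap between control and either dose. Spag11b, an epididymal secretory gene linked to sperm maturation, had 4973, 5783 and 5909 CPM in controls, 5731, 7352 and 7973 with 6% EtOH and 6343, 7315 and 9369 with 10% EtOH, and of the doses 10% alone lay wholly above control. Defb30, in contrast, had 505, 455 and 511 CPM in controls, 696, 251 and 139.6 with 6% EtOH and 535, 381 and 90.2 with 10% EtOH, with its low values in 6% replicates 2 and 3 and 10% replicate 3. Spag11a had 19.0, 16.3 and 22.8 CPM in controls, 38.1, 12.3 and 3.67 with 6% EtOH and 28.6, 20.4 and 6.43 with 10% EtOH, and its lowest values were in the same 3 libraries. Rnase13, of the same family as Rnase9, was also lowest in 6% replicate 3 at 266 CPM and 10% replicate 3 at 64.8 CPM among the 10-week libraries. Lcn5, a lipocalin of the caput, was at 3506, 2066 and 887 CPM in the 3 libraries and at 4646 or more in the other 10-week libraries. Other listed genes were not low there. Adam7, listed with Lcn5, was at 22050, 21090 and 28610 CPM in the 3 libraries and at 15510 to 15970 CPM in controls. Summed distal caput and corpus genes ran from 71193 to 79952 CPM with 6% EtOH and from 77634 to 85673 CPM with 10%, against 60248 to 63368 CPM in controls. Over whole groups, most listed caput genes lay above control. Of 18 initial segment and proximal caput genes tested, 15 were above 0 and 3 below with 6% EtOH, and 14 and 4 with 10%. Of 13 distal caput and corpus genes tested, 10 were above 0 and 3 below at each dose. In bulk tissue, fewer cells of a type and less RNA per cell cannot be told apart.

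**Figure D3:**
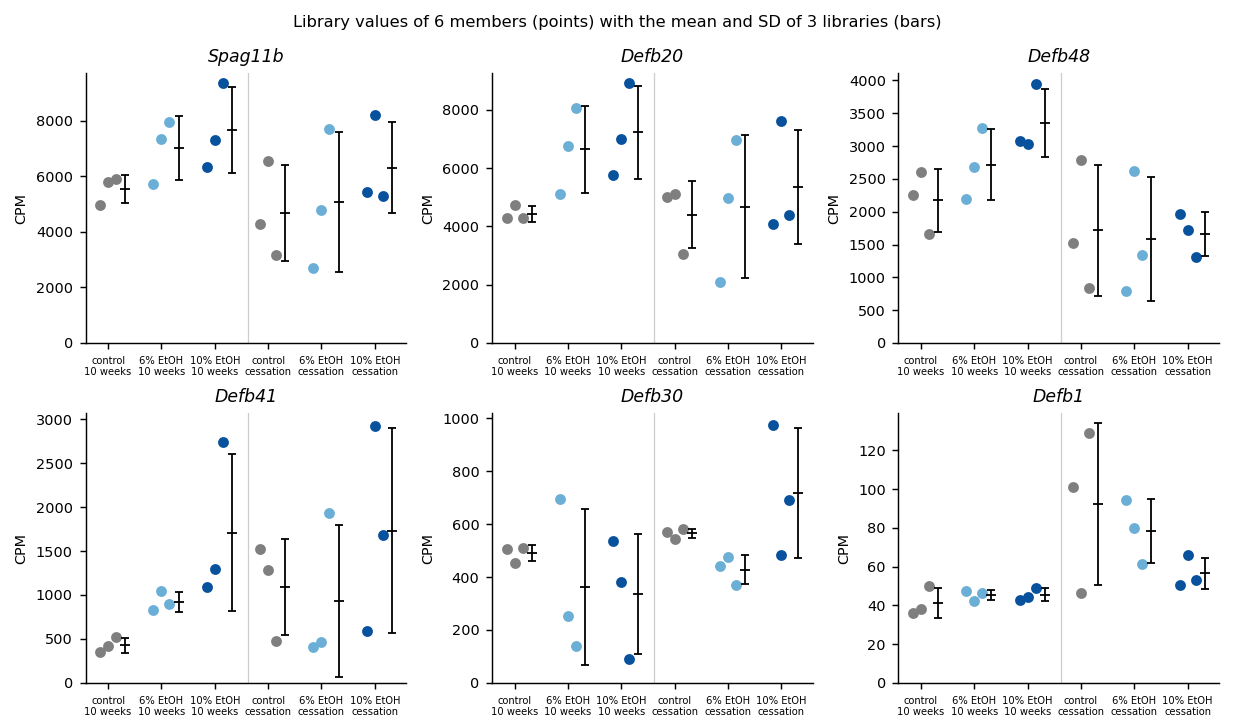
CPM of 6 genes in every library (points) with the mean and SD of 3 libraries (bars), by treatment and time. At 10 weeks Defb41 lies at 351 to 518 in controls and at 824 to 2740 with EtOH, while Defb30 spans 90.2 to 696 with EtOH.

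Groups that did not overlap were counted for 5 members with 6% EtOH, beside 18.7% of all genes, and for 7 members with 10% EtOH, beside 30.7%. With 6% EtOH these 5 were higher, as were 9.67% of all genes (Defb18, Defb41, Defb20, Defb45 and Defb42). With 10% EtOH 6 were higher (Defb18, Defb41, Defb20, Defb25, Spag11b and Defb48), beside 15.2% of all genes, and Defb13 was lower, beside 15.5%. Defb18 had 354, 403 and 456 CPM in controls, 459, 702 and 828 with 6% EtOH and 536, 659 and 715 with 10% EtOH, and its 6% change of 0.71 ± 0.31 had an unadjusted p of 0.0349 and an edgeR adjusted p of 1. Without the 3 EtOH libraries lowest in Defb30 that change was 0.19, with 6% EtOH replicate 1 alone left in its group.

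The doses were then compared at 10 weeks. No gene passed (0%), and 1 member was called at an unadjusted p under 0.05 against 2.83% of all genes. That member was Defb40, at 0.446, 0.290 and 0 CPM with 6% EtOH and 1.36, 0.671 and 0.590 with 10% EtOH, levels of a few counts. Defb45 had a change of -0.49 ± 0.34, from 225, 269 and 280.2 to 201, 261 and 87.6 CPM. Leaving out 10% EtOH replicate 3 gave -0.16 for that change, and leaving out 10% EtOH replicate 2 gave -0.84. Its direction turned, to 0.05, without the 3 EtOH libraries lowest in Defb30, which leaves 6% EtOH replicate 1 alone in its group. Of the 32 genes 18 lay above 0, beside 49.3% of all genes, with a median of 0.0478. Groups did not overlap for 2 members, Defb41 and Defb40, beside 13.6% of all genes.

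After cessation the question was whether differences between treatments were still measured. No member and no gene passed in either dose against control (0% called for each dose), nor did any with DESeq2 or limma-voom. Unadjusted p under 0.05 was reached by 0 members with 6% EtOH against 1.62% of genes, and by 2 members with 10% EtOH against 6.66%. The groups did not overlap for 5 members with 6% EtOH beside 4.01% of genes, and for 2 with 10% EtOH beside 6.46%. With 6% EtOH 11 of 32 lay above 0, with a median log2 fold change of -0.194, beside 48% and -0.0101 over all genes. With 10% EtOH 24 of 32 did, with a median of 0.278, beside 47.9% and -0.0156. Both doses share the control libraries.

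Defb1, which is made by epithelia across the body without induction, had 101, 46.6 and 129 CPM in the cessation controls, 94.2, 79.8 and 61.5 with 6% EtOH and 50.7, 65.8 and 53.1 with 10% EtOH. Control replicate 2 lay below every 6% EtOH library. The 10% EtOH change of -0.71 ± 0.26 had an edgeR adjusted p of 0.744. Without control cessation replicate 2 it was -1.02 with an edgeR adjusted p of 0.0148, in a fit that called 191 genes (0.985%). Without control cessation replicate 3 it was -0.38 with an adjusted p of 1, and over the alternatives the adjusted p ranged from 0.00718 to 1. Defb41 overlapped between all treatments after cessation, at 1518, 1284 and 476 CPM in controls, 408, 465 and 1934 with 6% EtOH and 588, 2926 and 1686 with 10% EtOH. Defb10 had 2.02, 2.45 and 1.72 CPM in controls, 1.60, 1.45 and 3.68 with 6% EtOH and 5.51, 2.25 and 4.54 with 10% EtOH, with a 10% EtOH change of 0.99 ± 0.46 and an edgeR adjusted p of 0.744.

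The most abundant genes overlapped widely between treatments after cessation. Defb20 had 5007, 5126 and 3064 CPM in controls, 2077, 4977 and 6953 with 6% EtOH and 4078, 7603 and 4372 with 10% EtOH. Spag11b had 4299, 6555 and 3161 CPM in controls, 2679.8, 4796 and 7702 with 6% EtOH and 5423, 8212 and 5306 with 10% EtOH. Control replicate 3 and 6% EtOH replicate 1, the libraries highest in ciliated markers, were the lowest of their groups for both genes. Defb42 had 1164, 1521 and 922 CPM in controls, 808, 1517 and 1358 with 6% EtOH and 1592, 1301 and 1207 with 10% EtOH, and 1469, 1453 and 1351, in that order of replicates, in the 10-week controls. Defb18 had 455, 428 and 294 CPM in controls, 196, 472 and 621 with 6% EtOH and 415, 561 and 413 with 10% EtOH. Spag11a had 50.02, 36.7 and 30.6 CPM in controls, 28.1, 18.5 and 37.4 with 6% EtOH and 33.8, 43.7 and 83.9 with 10% EtOH, with 1 high library, 10% EtOH replicate 3, that also stood out for Spint4.

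Defb23 and Defb28 lie in the same run of neighbouring genes. Defb23 had 55.9, 24.9 and 63.8 CPM in controls, 13.02, 6.83 and 13.2 with 6% EtOH and 126, 8.79 and 167 with 10% EtOH. Defb28 had 19.8, 13.6 and 18.7 CPM in controls, 5.15, 4.80 and 6.13 with 6% EtOH and 34.2, 3.46 and 54.4 with 10% EtOH. In both, 10% EtOH replicate 2 was low and replicates 1 and 3 were high. Between 10% and 6% EtOH the log2 change was 3.20 ± 1.22 for Defb23, 2.52 ± 0.86 for Defb28 and 0.99 ± 0.33 for Defb37, each with an edgeR adjusted p of 0.634, and no gene passed (0%). At an unadjusted p under 0.05 these 3 members were called, beside 7.85% of all genes, and the groups did not overlap for 5 members beside 8.59%. Of the 32 genes 27 lay above 0, beside 47.5% of all genes, with a median of 0.452 beside -0.0196. So did 11 of 13 distal caput and corpus genes and 14 of 18 initial segment and proximal caput genes. Of 17 ciliated-cell markers 0 did. The 6% EtOH replicate 1, highest in those markers, was the lowest cessation library for 58.6% of the members with a mean of at least 1 CPM. Its part was not tested. Leaving out single libraries gave 1.83 to 3.05 for Defb28 and 0.80 to 1.18 for Defb37. Defb37 had 25.6, 26.8 and 37.0 CPM with 6% EtOH and 47.1, 56.4 and 74.0 with 10% EtOH.

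**Figure D4:**
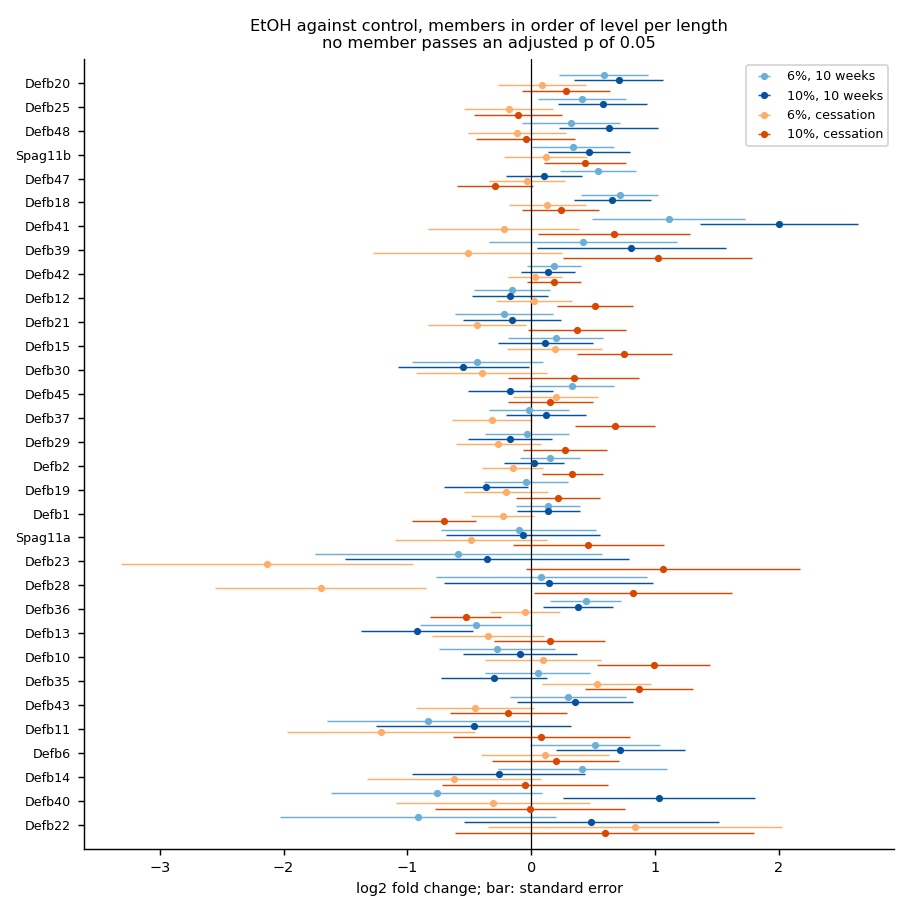
Log2 fold change with its standard error for each dose against control at 10 weeks (blue) and after cessation (orange), genes in order of level per length. Defb41 at 10 weeks with 10% EtOH is the highest at 2.0, and no gene passes an adjusted p of 0.05.

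The difference of each EtOH effect between the times was tested directly. No member or gene passed for 6% or for 10% EtOH (0% for each); unadjusted p under 0.05 was reached by 0 members against 3.01% of genes and by 2 against 7.44%. The difference was above 0 for 7 of 32 members with 6% EtOH, beside 50.2% of all genes, and for 20 of 32 with 10% EtOH, beside 46.9%. For Defb41 the difference was -1.33 ± 0.87 for both doses, with edgeR adjusted p of 1 for 6% and 0.744 for 10%. The 6% value was -2.43 without 6% EtOH cessation replicate 3, and the 10% value was -0.82 without 10% EtOH 10-week replicate 3. For Defb1 and 10% EtOH it was -0.84 ± 0.36, adjusted p 0.654, and for Defb36 it was -0.91 ± 0.40, adjusted p 0.663. Without control cessation replicate 3 these were -0.52 and -0.47. Defb36 had 6.78, 9.23 and 6.07 CPM in 10-week controls and 8.37, 8.77 and 17.7 in cessation controls, and with 10% EtOH 9.24, 8.52 and 10.9 at 10 weeks and 9.22, 5.86 and 8.94 after cessation.

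The times were also compared. The groups differ in the time of sampling and in total counts as well as in cessation, and these cannot be told apart. In controls alone 22 genes passed (0.118%), none of them a member, and 3 members reached an unadjusted p under 0.05, beside 20.3% of genes. Defb1 was nearest, at 35.8, 38.1 and 50.02 CPM at 10 weeks and 101, 46.6 and 129 after cessation, a change of 1.16 ± 0.26 with an edgeR adjusted p of 0.0738; replicate 2 of the cessation controls lay inside the 10-week range. Without that library the adjusted p was 0.000194, in a fit that called 2724 genes (14%). DESeq2 gave 0.00285 with all libraries, where it called 5.71% of genes. Over the alternatives the adjusted p ranged from 4.72e-09 to 0.369. Groups did not overlap for 9 members beside 25.1% of genes, and 20 of 32 lay above 0 beside 53.8%.

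Averaged over the 3 treatments, 5 members passed, beside 17.9% of all genes (3335), and 11 reached an unadjusted p under 0.05, beside 36.7%. Of the 32, 21 lay above 0, beside 55.2% of all genes. Defb1 rose by 0.76 ± 0.15 on the log2 scale (edgeR adjusted p 0.0101), and Defb11, at about 1 CPM, rose by 1.5 ± 0.45 (adjusted p 0.0338). Defb25 fell by 0.75 ± 0.21 (0.0259), Defb47 fell by 0.65 ± 0.18 (0.0253) and Defb48 fell by 0.71 ± 0.23 (0.0432). Defb1 ran from 35.8 to 50.02 CPM over the 9 libraries of 10 weeks, with a median of 44.5, and from 46.6 to 129 after cessation, with a median of 65.8. Defb25 ran from 1532 to 3166 with a median of 2397, and then from 628 to 2096 with a median of 1448. Defb48 ran from 1665 to 3945 with a median of 2679, and then from 785 to 2792 with a median of 1524. Defb47 ran from 901 to 1787 with a median of 1149, and then from 441 to 1098 with a median of 745. Defb11 ran from 0.116 to 1.27 with a median of 0.563, and then from 0.348 to 3.82 with a median of 1.80. The 2 sets of 9 libraries overlapped for every member, and 0.451% of all genes separated. Of 17 ciliated-cell markers 8 rose in this comparison and none fell. None was at 0 in a library, and their sum ran from 56.5 to 152 CPM at 10 weeks and from 59.3 to 495 after cessation. Of 18 initial segment and proximal caput genes 10 fell and none rose, and their sum ran from 24123 to 48640 CPM and then from 13131 to 33477.

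How many members passed depended on the libraries. Leaving out both cessation libraries highest in ciliated-cell markers left 2 members, Defb1 (0.58, adjusted p 0.0318) and Defb25 (-0.55, adjusted p 0.0488), among 466 genes (2.47%). Leaving out the 3 EtOH libraries of 10 weeks with the least Defb30, chosen by a member's own level, left 6% EtOH replicate 1 alone in its group. Defb1 then had a change of 0.75 and Defb11 of 0.94. How many members passed is not given for that fit, so these changes do not show that the result held. DESeq2 called 9 members, beside 22.4% of genes. Leaving out single libraries gave between 1 and 9 members, and between 850 and 5811 genes (4.41% to 30%) in the same fits. Omitting 6% EtOH 10-week replicate 3 or 10% EtOH cessation replicate 3 gave 1 member each, beside 7.78% and 4.41% of genes. Omitting 6% EtOH 10-week replicate 1 or 10% EtOH cessation replicate 1 gave 9 each, beside 13.6% and 25.6%, and omitting 6% EtOH cessation replicate 2 gave 8. Without control 10-week replicate 2 or 6% EtOH 10-week replicate 2 there were 2. Without control replicate 1 of either time, 10% EtOH 10-week replicate 2 or control cessation replicate 3 there were 3, and the other 7 omissions gave 4 to 7. The share of all genes called in each of these fits lay within the range of 4.41% to 30%, so these counts are not a result about the members alone.

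**Figure D5:**
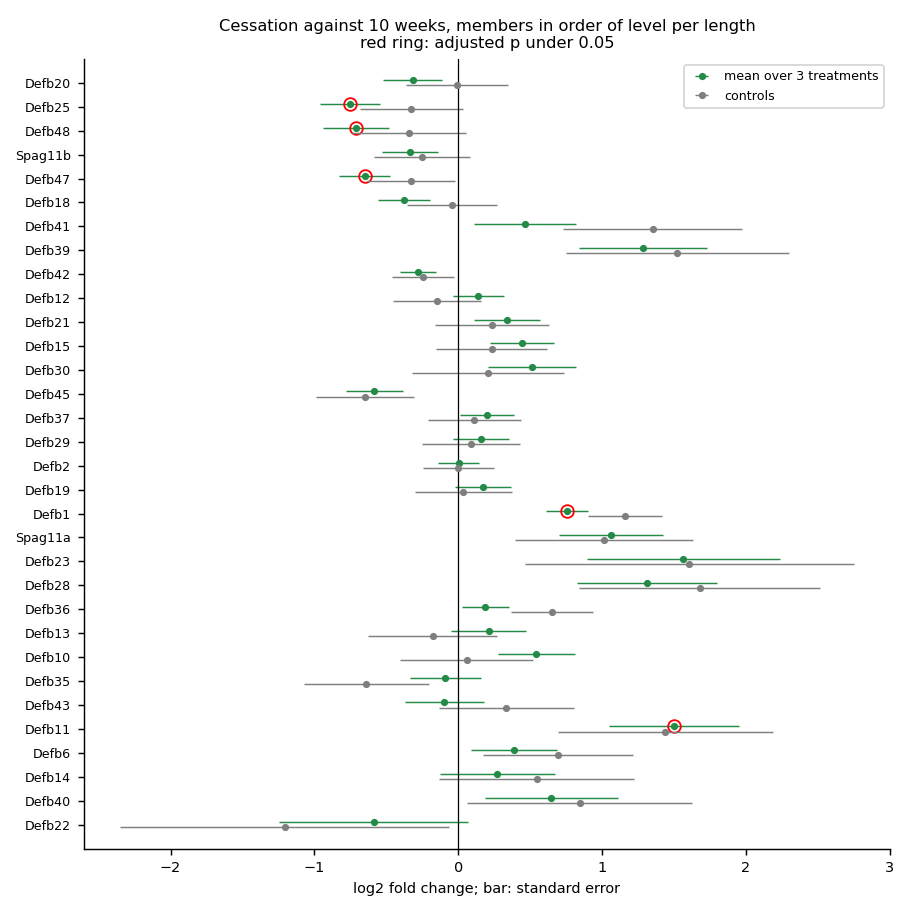
Log2 fold change of cessation against 10 weeks with its standard error, as the mean over 3 treatments (green) and in controls (grey), genes in order of level per length. Red rings mark Defb25, Defb48, Defb47, Defb1 and Defb11, which passed an adjusted p of 0.05 in the mean over treatments.

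Other antimicrobial proteins and the machinery around these genes were counted from lists. The rises and falls below are from the mean over treatments, where 17.9% of all genes passed. Without both cessation libraries highest in ciliated-cell markers 2.47% did, and the lists were not counted in that fit. Of 25 antimicrobial proteins other than beta-defensins 15 were tested, and none passed in any EtOH comparison. In the mean over treatments 2 rose after cessation, Lyz2, the lysozyme of macrophages, by 0.72 and Rnase4 by 0.56, and 7 fell, among them Lcn2, an iron-scavenging lipocalin, by 0.58, Bpi, which binds bacterial lipopolysaccharide, by 0.63 and Eppin, a sperm-coating protease inhibitor, by 0.64. Of 26 genes for receptors of beta-defensins and microbial products and their signalling (adaptors, kinases and NF-kappa-B proteins) 24 were tested, and 3 rose: the lipopolysaccharide co-receptor Cd14 by 1.90, the NF-kappa-B inhibitor Nfkbia by 0.74 and the NF-kappa-B subunit Nfkb1 by 0.38. Of 8 genes of the androgen receptor and steroid 5-alpha reductases, 3 fell, all reductases, with Srd5a1 at -0.74 ± 0.20, and none rose. Macrophage markers summed to 219.8 to 434 CPM at 10 weeks and 256 to 598 after cessation; their part in these changes was not tested.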

How the data were processed

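The authors deposited a table of raw read counts for each library, with 53819 gene entries. Trimmomatic, STAR, featureCounts and the builds GRCm39 and mm39 are named in the submitters' processing notes. Versions, strand setting and the treatment of multiply matching reads are not stated there. Per the labels, extraction used the Qiagen RNeasy mini kit, and the sequencer was an Illumina HiSeq. Groups came from the labels, and replicate numbers follow the order of deposit. Replicates of a group differed by 5.35 or more chi-square per degree of freedom.

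The members and gene lists were chosen with earlier results of these data known. Counts were fitted in edgeR 4.0.16 (R 4.3.3) with its quasi-likelihood test (robust option) on the 18 libraries together, 1 term per group, TMM scaling (factors 0.914 to 1.20) and filterByExpr (minimum count 10, minimum total 15), which kept 18618 genes and at least 99.7% of counts. The common biological coefficient of variation was 25.4%. P-values of the 10 comparisons are two-sided, Benjamini-Hochberg adjusted over all 18618 genes, with a threshold of 0.05. Levels are TMM-scaled CPM, and errors of log2 fold changes are those implied by the F statistic. Library values or their ranges are given for the 8 most abundant members, Spag11a and Spag11b, members that passed, and the 2 of smallest p elsewhere. Defb30 was added after its values were seen. Exon length, shared runs of 50 bases and coding sequence were matched by symbol (32 of 32) to GENCODE release 21 and promoters to RefSeq GRCm38.p6, an earlier build than the files'. Alternatives used DESeq2 1.42.0, limma 3.58.1, other filters and scaling, and fewer libraries.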

Additional observations from a re-analysis of the deposited data

How the results depend on the processing

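No paired analysis was possible because the labels give no replicate numbers, and the numbers used only name the libraries in order of deposit. Direction was checked for the 2 members of smallest p in each EtOH comparison. It held under RLE size factors, a filter of 10 counts in 3 libraries, DESeq2, limma-voom and leaving out single libraries. Other named changes, such as that of Defb23 between doses after cessation, were not part of that check. Defb45 between doses at 10 weeks went from -0.49 to 0.0501 without the 3 EtOH libraries lowest in Defb30. That fit has 6% EtOH replicate 1 alone in its 10-week group. With no filter on low counts, members past the threshold numbered 1 and 4 for 6% and 10% EtOH at 10 weeks, 2 and 6 after cessation, 1 and 8 between doses at the 2 times, 3 and 3 for the differences of effect, 7 for control times and 15 for the mean over treatments. In the same order, 0.121%, 2.02%, 0.14%, 1.12%, 0.165%, 1.61%, 0.242%, 1.06%, 4.79% and 12.6% of 36360 genes passed in those fits. The cause was not tested. DESeq2 called 1 member and 949 genes for control times, 9 members and 4520 genes for the mean over treatments, and no member but 81 genes for 10% EtOH at 10 weeks and 1 gene each for 10% against 6% EtOH after cessation and the 10% difference of effect. For control times 22 genes passed with all libraries, and none with limma-voom or with the 6 control libraries alone. The 9 libraries of 10 weeks alone gave 3 members for 10% EtOH, and 2 without its replicate 3. For the mean over treatments, leaving out both cessation libraries highest in ciliated markers left 2 members and 466 genes. This omission and that of the 3 EtOH libraries lowest in Defb30 were chosen after seeing the data. Leaving out 1 library at a time gave 0 to 1 member for 10% EtOH after cessation and for control times, 1 to 9 for the mean over treatments, and 0 to 0 for the others. Genes past the threshold then numbered 0 to 191, 0 to 2724 and 850 to 5811 for those 3 comparisons and 0 for the others, of 19117 to 19433 tested. Defb14, Defb40 and Defb22, below 1 CPM on average, rest on few counts.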

Other observations

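Some genes that are not beta-defensins followed the same libraries. Over the 18 libraries, the summed CPM of the described genes had its highest Pearson correlations of log2 levels with Gm17416 (0.977), Mgat2 (0.97), Rcn2 (0.965), Enpp2 (0.961) and Adam7 (0.961). This is a description with no test, over libraries that also differ in total counts and in cell type markers. Adam7 is a sperm-binding protein of the caput.

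Defb41 and Defb30, both picked after their values were seen, had different companions. Defb41 correlated most with Psma1 (0.98), a proteasome subunit, Ube2v2 (0.972), Atp5j (0.967), Yme1l1 (0.963) and Tmx3 (0.962). Defb30 correlated most with Gc (0.975), the vitamin D binding protein, Gm6040 (0.975), Rnase9 (0.973), Serpina1f (0.973) and Serpina16 (0.966). With 10% EtOH at 10 weeks Psma1 had a log2 change of 0.56 ± 0.20 and an edgeR adjusted p of 0.299, and Gc had -0.86 ± 0.57 and 0.523.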
